A study of Arabidopsis thaliana with 7 samples.

Results

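Far intergenic peaks were the peaks of ZF-DDR5 chromatin immunoprecipitation sequencing (ChIP-seq) whose centre lay in no annotated gene of any type and more than 1000 bp from any protein-coding gene. The rule used positions only, and it chose 293 of the 9999 peaks in the list (2.93%, Wilson 95% interval 2.62% to 3.28%). The list came from replicate 1 of Arabidopsis thaliana seedlings of the genotype ZF-DDR5, labelled day 12. ZF-DDR5 (n = 2) was 1 of 4 groups, beside ZF-DDR4 (n = 2), whose label gives a DDR4-FLAG-ZF fusion protein, untransformed Col-0, labelled wild type (n = 2), and a further Col-0 whose title carries the mark g3 (n = 1), as the ZF-DDR5 titles do. The labels of ZF-DDR5 name no promoter and no antibody. The protocol text, shared by all samples, describes an anti-FLAG precipitation from independent homozygous lines of a DDR4 fusion, and whether the ZF-DDR5 replicates are separate lines is not stated in them. With 1 list there was no replicate and no control, no test between samples was possible, and whether Col-0 has the same peaks was not analysed here. All 95% intervals cover counting error only.

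DDT-domain proteins such as DDR4 and DDR5 are known partners of ISWI remodellers, enzymes that slide nucleosomes along DNA, and the zinc finger (ZF) brings the fusion to the DNA sequence it recognises. The Arabidopsis genome is compact, so that most sequence lies in or next to a gene. Sequence far from genes is gathered around the centromeres, where transposons and satellite repeats are packed into DNA-methylated heterochromatin, and is scattered along the arms in the gaps between gene neighbourhoods. Reads from repeats often cannot be placed at 1 position, and how such reads were treated here is not stated in the labels.

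Far intergenic sequence by the same rule, counted base by base, came to 20.1 Mb of the 119 Mb spanned (16.9%), and it carried 14.6 far intergenic peaks per Mb (exact Poisson 95% interval 13.0 to 16.4). Over the chromosomes the density was 14.6 ± 2.11 peaks per Mb (SD, n = 5 chromosomes). It was 12.9 per Mb on chromosome 1 (65 peaks), 13.0 on chromosome 2 (48), 14.7 on chromosome 3 (57), 14.2 on chromosome 4 (46) and 18.1 on chromosome 5 (77). The intervals of all 5 chromosomes overlapped, with chromosome 5 at 14.3 to 22.6 and chromosome 1 at 9.97 to 16.5. For comparison, peaks centred in no gene and at most 1000 bp from a protein-coding gene, called near intergenic here, numbered 381, or 16.8 per Mb of such sequence (15.2 to 18.6). The density per base was thus similar on both sides of the 1000 bp limit, with overlapping intervals. Inside protein-coding genes it was 132 per Mb (129 to 135), and in genes of other types only it was 69.9 per Mb (65.2 to 74.8).

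At the limit itself, the 5 members closest to a protein-coding gene lay 1011 bp from AT3G44006, 1013 bp from HAM4, 1014 bp from YSL6, 1033 bp from GA2OX6 and 1034 bp from AT2G05420. HAM4 encodes a GRAS-family regulator of meristems, YSL6 a metal-nicotianamine transporter and GA2OX6 an enzyme that inactivates gibberellin. The 5 peaks just outside the class lay 999 bp from STOMAGEN, a peptide that promotes stomata, 981 bp from PECT1, 978 bp from ATHM3, 963 bp from the polyubiquitin gene UBQ10 and 961 bp from AT5G22490.

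Of the far intergenic peaks 35.2% lay in the pericentromeres, and 30.1% (25% to 35.8%) without a single interval of chromosome 5 described below. The pericentromere of a chromosome was taken as its longest run of gene-poor 500 kb windows, those under 50% of the median protein-coding gene count (131 per window). These runs held 35 windows, or 17.5 Mb, of which 44.8% was far intergenic, against 12.0% of the arms. They held 103 of the 293 peaks (Wilson 95% interval 29.9% to 40.8%) and 39.0% of the far intergenic bases. The density was 13.2 peaks per Mb of far intergenic sequence in the pericentromeres (10.7 to 16.0) and 15.5 per Mb in the arms (13.4 to 17.9). The ratio of the 2 densities was 0.847, with an exact 95% interval of 0.66 to 1.08 that includes 1. Without the chromosome 5 interval it was 0.702 (0.535 to 0.915), and with all gene-poor windows taken as pericentromere it was 0.78 (0.609 to 0.995). In the same zones the ratio was 0.758 for near intergenic peaks (0.437 to 1.23), 0.626 for peaks in protein-coding genes (0.53 to 0.734) and 0.369 for peaks in genes of other types only (0.317 to 0.428). Far intergenic peaks made up 19.4% of all pericentromeric peaks (103 of 530) and 2.01% of all arm peaks (190 of 9469).

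**Figure D1:**
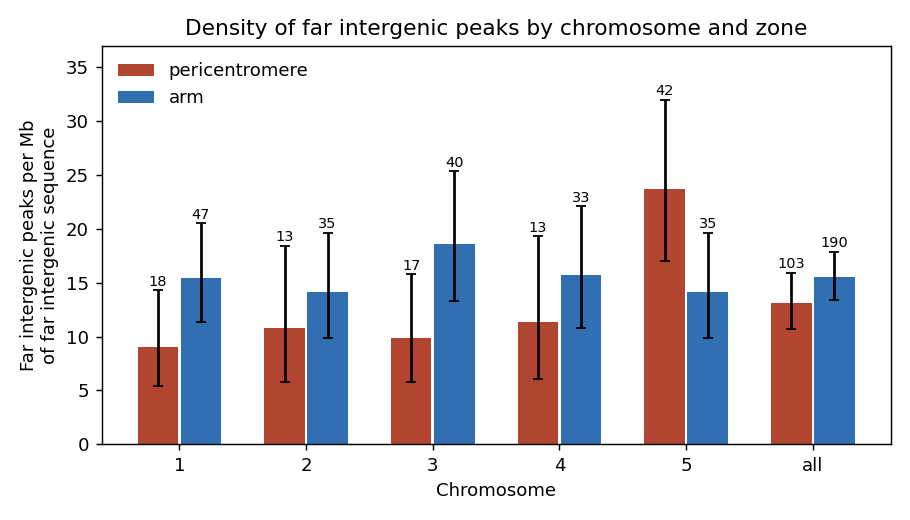
Far intergenic peaks per Mb of far intergenic sequence (vertical axis) in the pericentromere and arms of each chromosome, with exact Poisson 95% intervals as bars and the number of peaks above each. The pericentromere lies below the arms on chromosomes 1 to 4 and above them on chromosome 5, where it holds 42 peaks.

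Chromosome 5 had the highest ratio of pericentromere to arm density, 1.68 (exact 95% interval 1.04 to 2.70). The ratio was 0.588 on chromosome 1 (0.321 to 1.03), 0.763 on chromosome 2 (0.37 to 1.48), 0.53 on chromosome 3 (0.282 to 0.957) and 0.719 on chromosome 4 (0.347 to 1.40). The intervals of chromosomes 1, 2 and 4 include 1, and those of chromosomes 2 and 4 overlap that of chromosome 5. The plot of density by zone shows that the arms of chromosome 5, with 14.1 peaks per Mb, were like those of the other chromosomes (14.1 to 18.6), and that its pericentromere, with 23.7 per Mb, was the highest of the 5 (9.08 to 11.3 on the others). Of the 77 peaks of chromosome 5, 54.5% were pericentromeric, against 27.1% to 29.8% on the others.

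A single stretch on chromosome 5 held 21 of the 42 pericentromeric peaks of that chromosome, and 7.17% of all far intergenic peaks. It is the interval between the protein-coding genes AT5G30520 and AT5G32440, 440 kb long and second in length among the 6334 intervals between protein-coding genes that hold any far intergenic base. Of its bases 309 kb were far intergenic, so that its density was 68.1 peaks per Mb (42.1 to 104). It also contains 68 annotated genes that are not protein-coding, and 2 further peaks of the list were centred in such genes. Its far intergenic peaks were spread over 318 kb, and their widths ran from 282 to 969 bp with a median of 461 bp. For 17 of the 21 the nearest gene of any type was a pseudogene, for 3 it was the transfer RNA gene AT5G32017 and for 1 the microRNA gene MIR5643b. Without this interval the ratio of pericentromere to arm density was 1.01 on chromosome 5 (0.561 to 1.79) and 0.702 over all chromosomes (0.535 to 0.915). Both this stretch, picked as the fullest interval, and its omission were chosen after seeing the data. The range of 42.1 to 104 allows neither for that choice nor for the grouping of its peaks.

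Within that interval many peaks stood in close groups, 11 of the 21 being within 1000 bp of another peak. The group nearest to AT5G32017 had peaks at chromosome 5, 11787583 to 11787948, 11788317 to 11788944 and 11789259 to 11790227 (TAIR10). They were 366, 628 and 969 bp wide, with gaps of 368 and 314 bp between them. A pair followed at 11793761 to 11794254 and 11794807 to 11795375, 552 bp apart. Another pair lay near the middle of the interval, at 11860771 to 11861239 and 11861748 to 11862208. These were the far intergenic peaks most distant from any protein-coding gene, 215712 and 214739 bp from AT5G32440, and even the nearest pseudogene, AT5G32228, was 12655 and 13628 bp away. A further pair stood at 11898813 to 11899149 and 11899652 to 11899994, 502 bp apart. The last pair, at 12046000 to 12046942 and 12047701 to 12047982, was 758 bp apart. Single peaks lay at 11823088 to 11823533, 186672 bp from AT5G30520, and at 11915129 to 11915717, 161294 bp from AT5G32440. The 10 far intergenic peaks most distant from a protein-coding gene, at 152 to 216 kb, all belonged to this interval. Whether the sequence under these pairs is repeated was not tested, as no genome sequence was used.

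The other long intervals held few far intergenic peaks or none, and only the longest was of comparable length. The longest, 491 kb on chromosome 3 between AT3G32980 and AT3G33187, had 320 kb of far intergenic sequence and 0 far intergenic peaks, a count that allows up to 9.37 per Mb. The 3 peaks of the list centred in it were of other classes. The third in length, 247 kb on chromosome 1 between AT1G38131 and AT1G38790, also had 0, in 153 kb, which allows up to 19.6 per Mb. The 201 kb interval on chromosome 4 between AT4G06490 and AT4G06526 had 0 in 120 kb, which allows up to 24.9 per Mb. These limits take 3 counts for a count of 0. The exact Poisson upper limits, as used for the other densities, are 11.5, 24.1 and 30.6 per Mb in the same order. Limits of the chromosome 1 and chromosome 4 intervals lie above the 14.6 per Mb of all far intergenic sequence, so their counts show no shortage. Of the 26 intervals longer than 100 kb, 11 held a far intergenic peak. They contained 36 peaks in all, and the 25 besides the one on chromosome 5 contained 15 in 2.28 Mb, or 6.59 per Mb (3.69 to 10.9). How much of each interval can be read uniquely was not tested, and the assembled sequence of centromeres is known to be incomplete in this build.

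**Figure D2:**
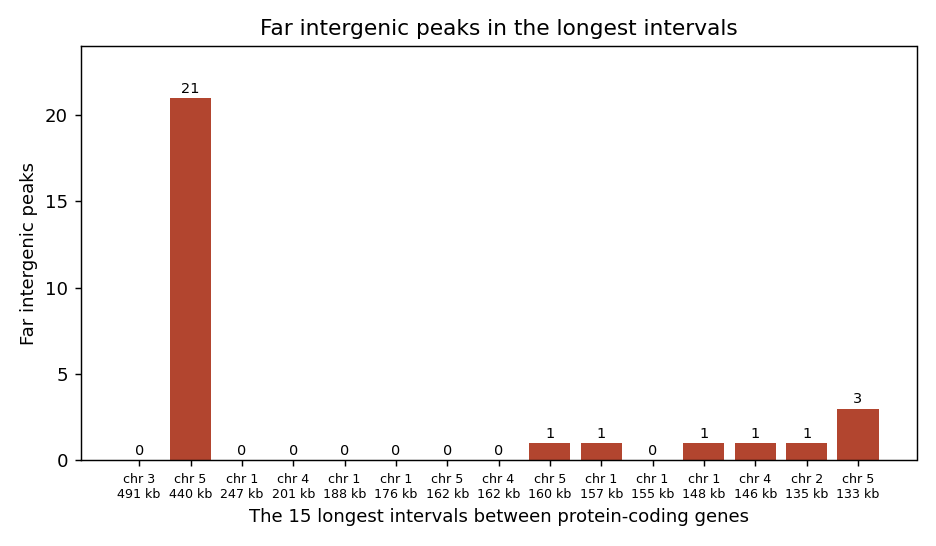
Number of far intergenic peaks (vertical axis) in each of the 15 longest intervals between protein-coding genes, ordered by length and labelled with the chromosome. The 440 kb interval on chromosome 5 holds 21 and the others between 0 and 3.

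Only 2 other intervals held more than 2 far intergenic peaks, and each had 3. The interval of 133 kb between AT5G32470 and AT5G32590, also on chromosome 5, had peaks at 12105254 to 12105684 (431 bp wide), 12134508 to 12134869 (362 bp) and 12186269 to 12186660 (392 bp). The interval of 130 kb between AT4G08097 and AT4G08140 on chromosome 4 had peaks at 5054060 to 5054462 (403 bp), 5096874 to 5097299 (426 bp) and 5119023 to 5119321 (299 bp). Unlike in the 440 kb interval, none of these 6 had another peak within 1000 bp, the smallest gap being 4136 bp. The nearest gene of any type was a pseudogene for all 6, marked as transcribed for 1 of them. Another 12 intervals held 2 far intergenic peaks and 239 held 1.

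Most intervals with far intergenic sequence had no far intergenic peak at all. Of the 6334, 254 (4.01%) had 1 or more. The share with a peak was higher in longer intervals, from 1.65% of the 4240 intervals up to 5 kb, through 6.26% at 5 to 10 kb, 9.53% at 10 to 20 kb and 16.3% at 20 to 50 kb, to 24.1% at 50 to 100 kb and 42.3% above 100 kb. Per Mb of far intergenic sequence the density was 15.7 in intervals up to 5 kb (12.2 to 19.8), 17.3 at 5 to 10 kb (13.9 to 21.2), 14.4 at 10 to 20 kb (10.5 to 19.4), 12.8 at 20 to 50 kb (8.90 to 17.8), 7.40 at 50 to 100 kb (4.14 to 12.2) and 13.9 above 100 kb (9.76 to 19.3). The value above 100 kb rests on the 440 kb interval of chromosome 5. Without it the density there was 6.59 per Mb (3.69 to 10.9), below that at 50 to 100 kb. Neither of these 2 ranges then overlapped that at 5 to 10 kb. That omission was chosen after seeing the data, and nothing was left out at the other lengths. Intervals over 50 kb were nearly all pericentromeric, 77 of 84, so length and zone cannot be told apart there. In pericentromeric intervals of 5 to 10 kb the density was 19.3 per Mb (8.34 to 38.1), beside 17.1 per Mb in arm intervals of that length (13.6 to 21.2).

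**Figure D3:**
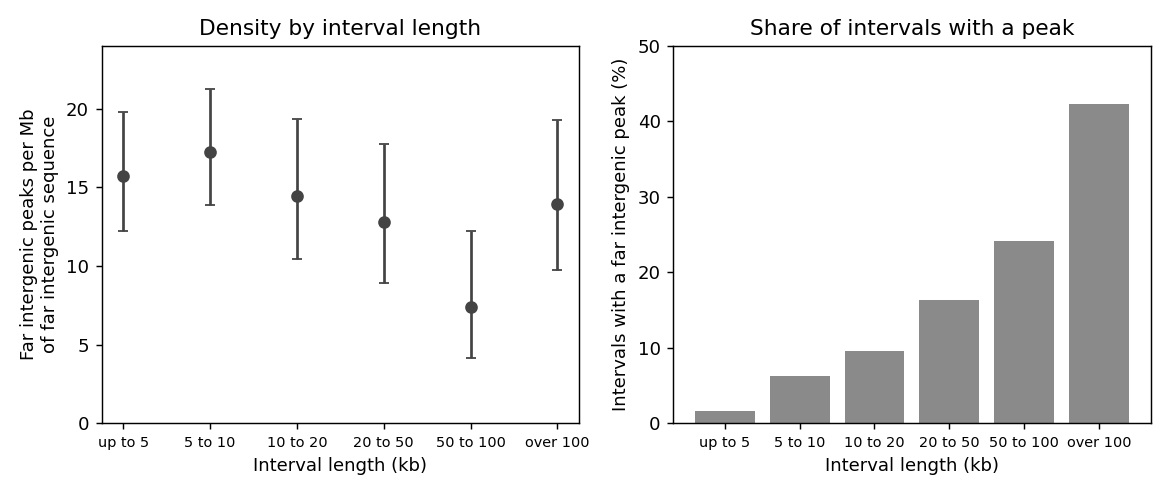
Left, far intergenic peaks per Mb of far intergenic sequence by length of the interval between protein-coding genes (kb), with exact Poisson 95% intervals. Right, the percentage of intervals of each length with at least 1 far intergenic peak, which goes from 1.65% to 42.3%. The density on the left lies between 7.40 and 17.3 per Mb, but the last point, 13.9, is 6.59 without the 440 kb interval of chromosome 5.

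The typical far intergenic peak was not remote. The median distance from the centre to a protein-coding gene was 2625 bp (quartiles 1449 and 5675 bp, highest 215712 bp), and 115 of the 293 (39.2%) lay within 2000 bp. In the arms the median was 1867 bp and the highest value 13018 bp, and in the pericentromeres the median was 10110 bp. Of the 54 peaks more than 10000 bp from a protein-coding gene, 52 were pericentromeric. The interval around a peak had a median length of 8593 bp (quartiles 5166 and 25928 bp, n = 290 peaks with a gene on both sides), 6110 bp in the arms and 43912 bp in the pericentromeres. Both pericentromeric medians count the 21 peaks of the 440 kb interval and were not computed without them. Without these peaks the median interval length over both zones was 8027 bp. Across all 6334 intervals the median was 3782 bp, but a longer interval offers more bases, as described above. With the 440 kb interval counted, the density showed no steady trend with distance. It was 17.6 per Mb at 1000 to 1500 bp from a gene (14.0 to 22.0), 12.1 at 1500 to 2000 bp (8.41 to 16.8), 16.8 at 2000 to 3000 bp, 17.3 at 3000 to 5000 bp, 12.1 at 5000 to 10000 bp, 10.5 at 10000 to 50000 bp and 14.1 beyond 50000 bp (8.08 to 23.0). All 16 peaks beyond 50000 bp came from the 440 kb interval, as did those at 13208, 28876, 30246 and 47583 bp. Far intergenic sequence elsewhere at over 50000 bp held none. Densities by distance without that interval were not computed.

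**Figure D4:**
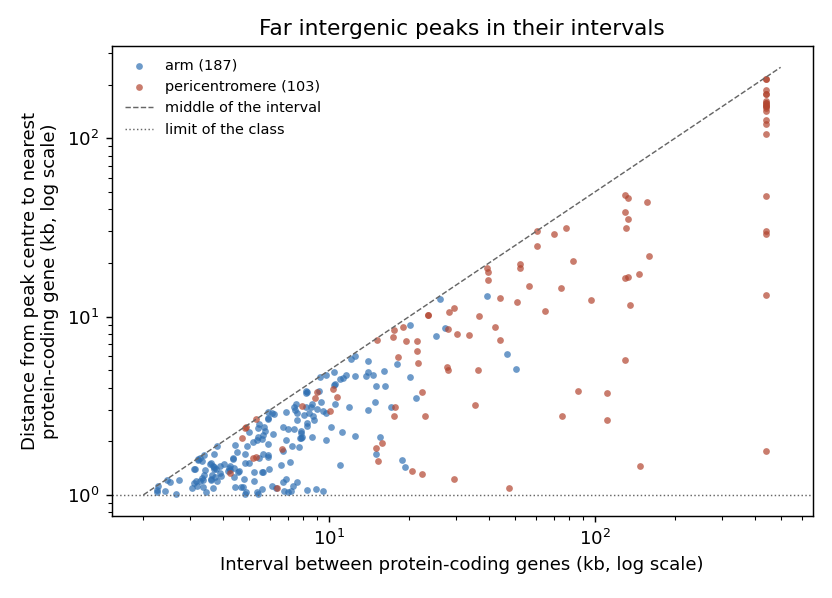
Distance from each peak centre to the nearest protein-coding gene against the length of the interval between protein-coding genes, both in kb on log scales, for 290 far intergenic peaks with a gene on both sides (187 in arms, 103 in pericentromeres). Arm peaks gather in intervals around the arm median of 6110 bp, and the vertical row of points at 440 kb is the interval on chromosome 5 with 21 peaks.

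The remaining 3 peaks lay at an end of chromosome 5, beyond its last protein-coding gene. They stood at 26972393 to 26972986 (594 bp wide), 26973312 to 26973605 (294 bp) and 26974051 to 26974866 (816 bp), and the last of them is the last peak of the list on that chromosome. The nearest protein-coding gene was AT5G67640, at 2021, 2790 and 3790 bp, and the nearest gene of any type was the long non-coding RNA gene AT5G09965, of which the first peak covered 252 bp. None of the other 9 chromosome ends had a far intergenic peak beyond its outermost protein-coding gene.

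Far intergenic peaks had the lowest median width of the 4 classes, at 406 bp (order-statistic 95% interval 384 to 429 bp, quartiles 339 and 541 bp, range 280 to 1588 bp). It was 441 bp for near intergenic peaks (415 to 463 bp), 466 bp for peaks in genes of other types only (452 to 483 bp) and 492 bp for peaks in protein-coding genes (485 to 501 bp). The interval of the far class overlapped that of the near class and neither of the other 2. Within the pericentromeres the median was 431 bp for far intergenic peaks (406 to 457 bp) and 470 bp for peaks in protein-coding genes (434 to 525 bp), and these intervals overlapped. In the arms the medians were 387 bp (374 to 419 bp) and 492.5 bp (486 to 501 bp), and these intervals did not overlap. Wide peaks were few. Only 9 of 293 (3.07%, Wilson 1.62% to 5.73%) measured at least 1000 bp, against 982 of the other 9706 (10.1%, 9.53% to 10.7%). Among near intergenic peaks it was 28 of 381 (7.35%, 5.13% to 10.4%), an interval that overlaps that of the far class. In the pericentromeres the share was 2.91% of far intergenic peaks (0.995% to 8.22%) and 6.45% of peaks in protein-coding genes (3.54% to 11.5%), with overlapping intervals. In the arms it was 3.16% (1.46% to 6.72%) and 10.4% (9.74% to 11.05%), without overlap. The medians of the chromosomes lay between 376.5 bp on chromosome 2 and 427 bp on chromosome 1, with overlapping intervals. The interval of the median of arm members overlapped that of the pericentromeric members. Together the 293 peaks covered 140 kb.

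**Figure D5:**
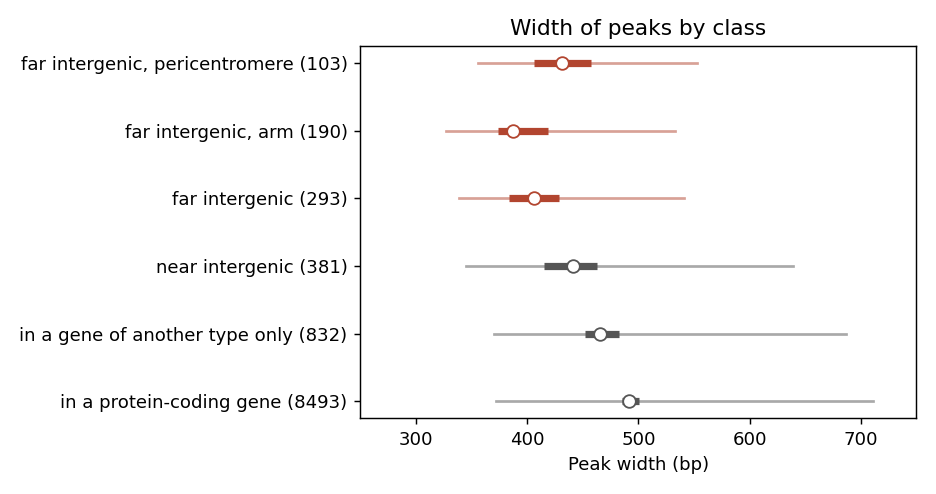
Width of peaks in bp for each class, with the number of peaks in brackets. Circles are medians, thick bars their 95% intervals and thin lines the quartiles. The far intergenic median of 406 bp lies below the 492 bp of peaks in protein-coding genes.

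The widest members often reached into an annotated gene at their flank. The rule places only the centre outside genes, so a wider peak is more likely to reach one. Among the 15 widest, 7 had bases in a gene although their centre had none, 4 of them in a pseudogene. The widest, 1588 bp at chromosome 1, 13168703 to 13170290, touched no gene. It was pericentromeric, 4984 bp from AT1G35630 and 1414 bp from the long non-coding RNA gene AT1G06917. The next, 1510 bp at chromosome 4, 5965341 to 5966850, had 720 bp in the pseudogene AT4G09425, and its centre was 36 bp from that gene. The third, 1464 bp at chromosome 1, 20319016 to 20320479, had 539 bp in the pseudogene AT1G54430. The fourth, 1431 bp at chromosome 3, 16436089 to 16437519, was clear of genes and 1680 bp from AT3G44970. The fifth, 1361 bp at chromosome 2, 3663678 to 3665038, lay 12123 bp from AT2G09388, also clear of genes.

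Further down the order by width, NDPK1, a nucleoside diphosphate kinase, was 5393 bp from a peak of 1314 bp on chromosome 4. That peak had 346 bp in annotated genes, the nearest to its centre being the long non-coding RNA gene AT4G05705. GER2 (AT1G17890), an enzyme of GDP-fucose synthesis, was 1552 bp from a peak of 1202 bp that had 590 bp in the pseudogene AT1G17900. A peak of 1166 bp near AT3G29140 enclosed a whole interval of 480 bp between annotated genes. Its 686 bp in genes were thus split over both sides, with the transcribed pseudogene AT3G29150 nearest to its centre. A peak of 1057 bp near AT1G42430 had 148 bp in the long non-coding RNA gene AT1G07117. The largest overlap among all members, 796 bp, belonged to a peak of 915 bp near AT5G37380, which enclosed a whole interval of 119 bp between annotated genes. The other 5 of the 15 widest measured 883 to 969 bp. They were 3 peaks of the 440 kb interval, at 969, 943 and 894 bp, and peaks near AT1G52930 (916 bp) and AT1G17410 (883 bp). Over all members, 238 of 293 had no base in any gene and 55 touched one.

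Protein-coding genes and pseudogenes made up most of the nearest genes of far intergenic peaks. The nearest gene of any type was protein-coding for 103 of the 293 peaks (35.2%), a pseudogene for 99 (33.8%), a transcribed pseudogene for 24 (8.19%), and a long non-coding RNA gene for 43 (14.7%). Among all 37899 genes of the table the shares were 72.4% protein-coding, 10.3% pseudogenes, 2.44% transcribed pseudogenes and 9.18% long non-coding RNA genes. The rule keeps centres away from protein-coding genes but not from other genes, so it favours the other types. In the pericentromeres the nearest gene was a pseudogene that is not marked transcribed for 67 of 103 peaks and protein-coding for 10, and in the arms for 32 and 93 of 190. Transfer RNA genes were nearest to 4 peaks, all pericentromeric, and microRNA genes to 3. The median distance to the nearest gene of any type was 1117 bp (quartiles 410 and 1882 bp).

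The protein-coding genes nearest to far intergenic peaks carried peaks of their own about as often as genes in general. They were 258 different genes, of which 65 (25.2%, Wilson 20.3% to 30.8%) had a peak centre in the body, against 26.9% of all 27444 protein-coding genes. In the arms the count was 52 of 183 (28.4%, 22.4% to 35.3%), beside 26.1% of all arm genes that bound an interval with far intergenic sequence. In the pericentromeres it was 13 of 75 (17.3%, 10.4% to 27.4%), beside 13.5% of the corresponding genes there. A close neighbour of any class was less common for far intergenic peaks than for other peaks. The rule favours this, since it keeps members away from protein-coding genes, where peaks were densest. Of the 293, 59 (20.1%, 15.9% to 25.1%) had a neighbour within 2000 bp, against 38.4% of all other peaks (37.5% to 39.4%). The median gap was 5118 bp (4337 to 5886 bp), beside 4179 bp for peaks in genes of other types only (3734 to 4701 bp), 2904 bp for peaks in protein-coding genes (2811 to 2981 bp) and 2801 bp for near intergenic peaks (2222 to 3418 bp). Within the pericentromeres, 25.2% of the far intergenic peaks (17.9% to 34.4%) and 34.8% of the peaks in protein-coding genes (27.8% to 42.6%) had a neighbour within 2000 bp, and these intervals overlapped. That overlap may rest on the 440 kb interval of chromosome 5. It held 11 of the 19 pericentromeric far intergenic peaks with a neighbour within 1000 bp. Shares of close neighbours without it were not computed.

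Among the 258 nearest protein-coding genes, 14 (5.43%, Wilson 3.26% to 8.90%) carried a symbol that begins with 1 of a set of family prefixes of transcriptional regulators, against 4.05% of the genes that bound intervals with far intergenic sequence and 2.28% of all protein-coding genes. The prefixes included WRKY, MYB, ERF, NAC, ANAC, BHLH, HB, IAA, ARF, GATA, TCP, SPL, DOF, BZIP, LBD, GRF, HSF and TGA. Each was followed by a digit, after a hyphen in HB-2 and HB-7. Regulators with other symbols, such as LEC2, PLT1 and SHR among these nearest genes, are not counted, so the 14 is not a count of all regulators. The interval of the 5.43% includes the 4.05%. In the arms the count was 13 of 183 (7.10%, 4.2% to 11.8%), beside 4.30% of the arm genes that bound such intervals. All but 1 of the 14 were in the arms. So were 414 of the 424 genes with such symbols that bound intervals with far intergenic sequence. WRKY23, a regulator of root development, stood 1592 bp from a peak of 311 bp at chromosome 2, 19408535 to 19408845. IAA2, an Aux/IAA repressor of auxin response, stood 4669 bp from a peak of 404 bp at chromosome 3, 8186563 to 8186966, in an interval of 12510 bp. HB-2 (AT4G16780), a homeodomain-leucine zipper factor of the shade response, stood 3092 bp from a peak of 372 bp at chromosome 4, 9445837 to 9446208. MYB106, which limits trichome branching, was 1575 bp from the widest peak of the 14, at 691 bp. NAC070, a root cap factor, was 1248 bp from a peak of 283 bp, and the peak near ANAC087 (360 bp) was 3220 bp away.

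Peaks near MYB48, MYB102, SPL12, GATA9, HB33, HB53 and HB-7 (AT5G46880) measured 330 to 481 bp. WRKY23, IAA2, MYB48, SPL12, HB-7 and HB53 also had a peak centre in their own body, and the other 8 had none. Which end of each gene faces the peak was not analysed here, since the gene table gives no strand.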

How the data were processed

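ChIP-seq was made from seedlings in 7 samples, and 1 peak list, deposited under ZF-DDR5 replicate 1, was analysed. It gives a chromosome, start and end in 3 columns, with no score, count or p-value, so depth and the precision it gives are unknown. Per the submitters' processing notes, fastp 0.20.1, Bowtie2 2.4.2, SAMtools, Picard 2.25.6, deepTools 3.5.1 and the build TAIR10 were used. The peak caller, threshold, control and any pooling are not stated in the labels.

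Starts, counted from 0 in the file by BED convention, were printed counted from 1. A centre is the middle base, the lower one of a pair. Gene positions, types and symbols came from the RefSeq gene table of TAIR10.1 (37899 genes on 5 chromosomes, 27444 protein-coding). Its name differs from the peaks' build, so no gene coordinates are printed, and distances assume the same frame. Sequence was counted up to the last gene or peak of each chromosome. Peaks were named when among the 15 widest, the 10 farthest from a protein-coding gene, in the intervals with most members, among the 5 nearest on each side of the limit, or nearest to a gene of the prefix list. A gene and a prefix of that list are not reported here. The 5 fullest intervals could not be named, since 12 tied behind the first 3. The intervals without a peak, the peaks at the chromosome end and 3 regulators outside the prefixes were named after their values were seen. The members and lists were chosen with earlier results of these data known.

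Shares carry Wilson intervals, densities exact Poisson intervals, ratios of densities exact binomial intervals and medians order-statistic intervals, all at 95%. A count of 0 is given the limit of 3 counts. Distances, intervals and coverage of the intervals were tested on simulated data. No p-value was computed. Python 3.11.15, pandas 2.3.3, NumPy 2.4.6, SciPy 1.17.1 and Matplotlib 3.10.9 were used. The alternatives tried concern the distance limit, the gene types, the part of the peak counted, the wider peaks, a shift of the frame, and the windows.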

Additional observations from a re-analysis of the deposited data

How the results depend on the processing

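Of 32 alternative values of 5 results, 23 stayed within 1.5 times the main count or inside the main 95% interval. The number of far intergenic peaks, 293, was 425 with a limit of 500 bp and 178 with 2000 bp, 177 with distance measured to genes of any type, and 100 among the wider 50% of all peaks, each by construction. The share in the pericentromeres, 35.2%, was 26.1% with a limit of 500 bp, 50% with 2000 bp and 22.5% with a gene-poor limit of 25%, which makes the pericentromeres smaller. The ratio of pericentromere to arm density stayed between 0.702 and 0.918 in every alternative run, but its interval excluded 1 with all gene-poor windows (0.78, 0.609 to 0.995) and without the interval with most far intergenic peaks, and included it in the others. The median interval, 8593 bp, was 5883 bp with a limit of 500 bp, 17351 bp with 2000 bp and 4079 bp when genes of any type bound it. The median width stayed between 384 and 429 bp. Without scores in the list, no stricter peak threshold could be tried. No paired analysis was possible because only 1 sample has a list here, and no replicate could be left out. Depth is unknown, so how it limits these counts was not assessed.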
